A study of Mus musculus with 36 samples.

Results

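The genes described here are the 3 BRPF scaffolds (Brd1, Brpf1 and Brpf3), the MYST acetyltransferases Kat7, Kat6a and Kat6b, and the accessory subunits Ing4, Ing5 and Meaf6. They were taken by name, whatever their values, from a table of 52636 genes in the anterior cingulate cortex (aCC), and all 9 were among the 25572 genes expressed well enough to be tested. The question was whether the transcript of any paralog or partner differs where Brd1 is reduced. One RNA library was made from each of 36 female mice of the C57BL/6NTac-Brd1 strain. Wild-type (WT) mice carried 2 intact Brd1 alleles, and their litter-matched Brd1+/- relatives carried 1 allele with a targeted deletion. Either genotype was injected with saline (vehicle) or with 10 mg/kg of the tricyclic antidepressant imipramine (IMN). This gave 8 WT and 9 Brd1+/- libraries with vehicle, and 10 WT and 9 Brd1+/- libraries with IMN. Per the study's methods the mice were 8 to 11 weeks old, and those sampled for RNA had been through behavioural testing, WT vehicle mice included. The deletion was heterozygous, so 1 allele stayed intact, and a gene-level value cannot tell transcripts of the intact allele from those of the targeted one.

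The MYST acetyltransferases encoded by Kat7, Kat6a and Kat6b add acetyl groups to lysines of histone H3 and H4 tails, and they act as 4-part complexes rather than alone. A scaffold of the BRPF family, which reads chromatin through PHD fingers, a bromodomain and a PWWP domain, holds the enzyme together with an ING protein that binds methylated lysine 4 of histone H3 and with the small subunit MEAF6. BRPF1 is best known with MOZ and MORF (encoded by Kat6a and Kat6b), whereas BRD1 and BRPF3 are best known with HBO1 (encoded by Kat7), which can also use JADE scaffolds. Because the scaffolds share their partners, a paralog is a candidate to fill the place of another.

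The closest coding stretches of the 3 scaffolds show how far reads can tell them apart. Among 60-base windows lying within 1 exon, the one below had the best match between Brd1 and both paralogs at once, with 52 of 60 bases identical in all 3 genes (capitals mark those bases, lower case those that differ in at least 1 gene). The sequences are those of GENCODE M21 transcripts on GRCm38, written 5′ to 3′ along the coding strand.
Brd1: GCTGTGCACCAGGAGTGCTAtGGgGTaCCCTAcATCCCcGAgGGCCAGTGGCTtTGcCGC
Brpf1: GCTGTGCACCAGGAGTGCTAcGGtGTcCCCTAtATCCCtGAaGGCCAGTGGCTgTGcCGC
Brpf3: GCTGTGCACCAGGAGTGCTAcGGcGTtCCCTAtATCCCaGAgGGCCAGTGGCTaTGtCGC

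The Brd1 window lies at chr15:88729914-88729973 on the minus strand, the Brpf1 window at chr6:113314886-113314945 and the Brpf3 window at chr17:28806666-28806725, both on the plus strand. Each paralog differed from Brd1 at 7 of the 60 bases even here (88.3% identity). Over all 3508 Brd1 coding windows the median best match was 32 of 60 bases in Brpf1 and 33 of 60 in Brpf3. The longest run of identical coding bases was 22 between Brd1 and Brpf1, 20 between Brd1 and Brpf3 and 23 between Brpf1 and Brpf3. It was 35 between Kat6a and Kat6b and 29 between Ing4 and Ing5, and these 2 runs are shown because they are the longest within the acetyltransferases and the ING readers.
Kat6a and Kat6b: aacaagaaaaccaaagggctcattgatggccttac
Ing4 and Ing5: gacaaggtgcagctggccatgcagaccta

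The first lies at chr8:22911820-22911854 in Kat6a and chr14:21625053-21625087 in Kat6b, and the second at chr6:125047035-125047063 in Ing4 and chr1:93811913-93811941 in Ing5, all on the plus strand. The reads of the study were 50 bases long, and 0 windows of 50 bases were shared between any 2 of the 9 genes. Brd1, Kat6a and Ing5 shared none of their 50-base windows with any other annotated gene. The share was 3.80% for Brpf1, 4.00% for Brpf3, 1.38% for Kat7, 0.458% for Kat6b and 0.223% for Meaf6. Ing4 is the uncertain one, since 33.8% of its windows also occur elsewhere, nearly all in Gm44597 (ENSMUSG00000108037), a processed transcript overlapping it on the same strand with a mean of 2.98 TPM. The antisense 4930557K07Rik also overlaps Ing4, with a mean of 1.09 TPM, and the antisense Gm15492 overlaps Brpf1, with a mean of 0.0194 TPM.

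Libraries resembled each other closely (Pearson's r of 0.958 to 0.982 over 630 pairs), and all 7 markers of cortical excitatory neurons had a median of at least 1 TPM over the 36 libraries. The Brd1+/- vehicle replicate 6 library stood apart: its striatal marker score (the mean log2(TPM + 0.5) of 10 genes) was 6.42 against 2.49 to 3.64 elsewhere, and its choroid plexus score (5 genes) 5.66 against -0.89 to 0.84. In the other 35 libraries, the summed level of the choroid plexus list was between 0.237 and 40.0 TPM, against 3884 TPM in that one. The summed level of 7 oligodendrocyte markers ran from 181 to 2654 TPM in WT vehicle, 228 to 1657 in Brd1+/- vehicle, 221 to 3282 in WT IMN and 219 to 3224 in Brd1+/- IMN. What punch content contributes to each value below was not tested beyond the fits that are named, and in bulk tissue fewer cells of a type cannot be told apart from less RNA per cell.

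All 9 genes were expressed in the aCC of WT vehicle mice, over a range from 6.14 TPM ± 0.363 (SD, n = 8) for Ing5 to 80.5 TPM ± 6.28 for Meaf6. TPM are scaled by transcript length, so levels of different genes can be set side by side. The order from the highest mean down was Meaf6, Kat7, Ing4, Kat6b, Brd1, Brpf1, Kat6a, Brpf3 and Ing5. Neighbours whose ranges over the 8 libraries overlapped, and whose order is thus not settled, were Ing4 and Kat6b, Kat6b and Brd1, Brpf1 and Kat6a, and Kat6a and Brpf3. Brd1 was the most abundant scaffold, and no WT vehicle library had more Brpf1 than its lowest Brd1 value of 22.6 TPM.

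**Figure D1:**
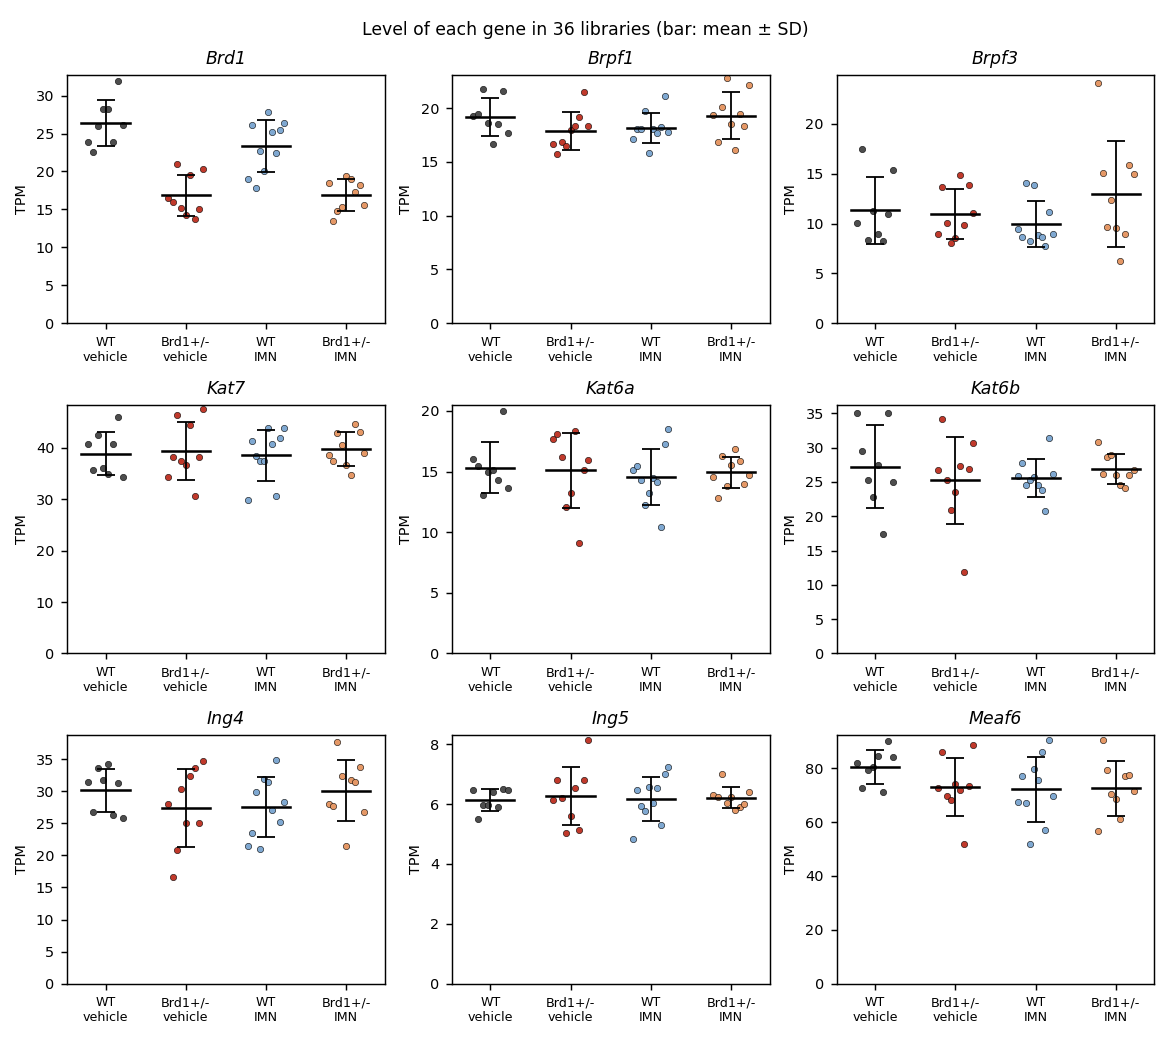
Level in TPM (y axis, from 0) of each of the 9 genes in every library, by group (x axis); points are libraries, horizontal bars group means and whiskers ± SD. Brd1 is the gene whose Brd1+/- points lie low in both treatments, at 13.5 to 20.9 TPM against 17.9 to 31.9 TPM in WT, while the points of the 4 groups overlap for the other 8 genes.

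Brd1 (ENSMUSG00000022387), the targeted scaffold, occupies bases 88687034 to 88734233 of chromosome 15, minus strand. The lowest, median and highest levels were 22.6, 26.1 and 31.9 TPM in WT vehicle and 13.8, 16.0 and 20.9 TPM in Brd1+/- vehicle. With IMN they were 17.9, 24.0 and 27.8 TPM in WT and 13.5, 17.3 and 19.4 TPM in Brd1+/- mice. The vehicle groups did not overlap, which held for 1 of the 25572 genes tested (0.00391%). Under IMN, by contrast, 5 of 9 Brd1+/- libraries lay below the lowest WT library. Over both treatments, with treatment as a term in the fit, Brd1 was lower in Brd1+/- mice by a log2 difference of -0.54 (SE 0.067, 95% interval -0.68 to -0.41), which places the Brd1+/- level at 62.6% to 75.5% of WT. The WT mean exceeded 18 of 18 Brd1+/- libraries, and 11 of 18 lay below the lowest WT library. The limma adjusted p-value was 2.83e-05, and Brd1 was the only gene of the table to pass 0.05 in this comparison (0.00391% of 25572). A permutation of genotype within treatment gave p = 1e-05, two-sided, the smallest that 100000 draws can give.

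Within one treatment the same difference was -0.64 (SE 0.095) in vehicle mice (limma adjusted p = 0.0620, exact permutation p = 8.23e-05) and -0.45 (SE 0.091) in IMN mice (limma adjusted p = 0.882, exact permutation p = 0.000325). Neither passed 0.05 after adjustment over all genes, and the vehicle call depended on the setting, with adjusted p-values from 0.00249 to 0.766 over the alternatives and a pass in 3 of 17 fits that left out 1 library (without Brd1+/- vehicle replicate 3, 6 or 9). The difference between the 2 genotype effects was 0.18 on the log2 scale (SE 0.13, 95% interval -0.08 to 0.45), which did not pass the test (limma adjusted p = 1.00).

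Brpf1 (ENSMUSG00000001632; chromosome 6, 113307137 to 113324860, plus strand) and Brpf3 (ENSMUSG00000063952; chromosome 17, 28801090 to 28839949, plus strand) are the paralogs that could replace BRD1 as scaffold. Brpf1 had a lowest, median and highest level of 16.7, 19.0 and 21.8 TPM in WT vehicle, 15.8, 17.9 and 21.5 TPM in Brd1+/- vehicle, 15.9, 18.1 and 21.1 TPM in WT IMN and 16.1, 19.4 and 22.8 TPM in Brd1+/- IMN. Averaged over both treatments, WT mice had 18.6 TPM ± 1.61 and Brd1+/- mice 18.6 TPM ± 2.06 (SD, n = 18 each). The groups overlapped throughout, and the log2 difference was -0.01 (SE 0.049; limma adjusted p = 0.999), with a 95% interval of 93.1% to 106.6% of WT and a sign that changed with the scaling of the libraries.

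Brpf3 varied far more between mice. It ran from 6.27 to 24.1 TPM over the 36 libraries, a 3.84-fold range, where Brpf1 covered a 1.45-fold range. Its within-group SD on the log2 scale was 0.40, larger than that of 84.1% of 2864 genes of similar level, while the SD of 0.13 for Brpf1 exceeded 8.09% of its 3200 peers. The mean of Brpf3 was 10.6 TPM ± 2.82 in WT mice and 11.97 TPM ± 4.16 in Brd1+/- mice (SD, n = 18 each), with overlapping ranges. The log2 difference of 0.14 (SE 0.13, 95% interval -0.12 to 0.41, or 92.2% to 132.5% of WT) did not pass the test (limma adjusted p = 0.999, permutation p = 0.286). The highest value, 24.1 TPM, belonged to Brd1+/- IMN replicate 1, and without that library the log2 difference was 0.08. That library also had the choroid plexus sum of 40.0 TPM, and the one with 3884 TPM, Brd1+/- vehicle replicate 6, had the highest Brpf3 level of its own group, 14.9 TPM. Over 36 libraries, group means removed, r between Brpf3 and the choroid plexus score was 0.31, and 0.23 after quantile normalization. Without that normalization r was 0.32 for Kat6a, 0.28 for Brd1, 0.24 for Kat7 and 0.21 for Kat6b. It was 0.20 for Ing4, 0.18 for Ing5, 0.15 for Brpf1 and 0.02 for Meaf6, so such values were not particular to Brpf3. These r include Brd1+/- vehicle replicate 6, whose score was 5.66 against -0.89 to 0.84 elsewhere. The part of that tissue in the Brpf3 values was not tested. By treatment the log2 difference of Brpf3 was -0.03 (SE 0.16) in vehicle mice and 0.30 (SE 0.19, 95% interval -0.09 to 0.69; limma adjusted p = 1.00) in IMN mice.

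**Figure D2:**
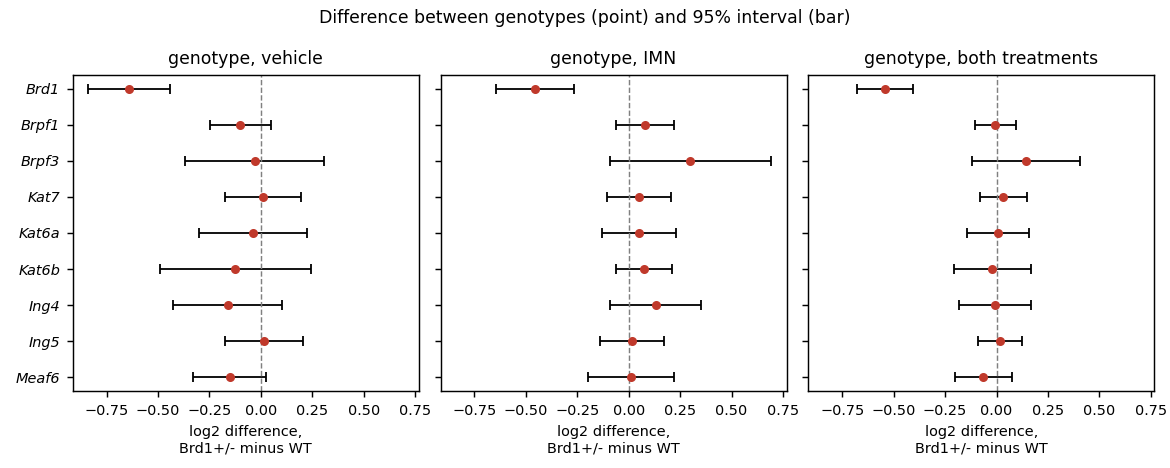
Log2 difference in log2(TPM + 0.5), Brd1+/- minus WT (x axis), for the 9 genes (y axis) in vehicle mice, in IMN mice and over both treatments; points are limma estimates, bars 95% intervals and the dashed line no difference. The Brd1 interval lies below 0 in each panel, from -0.68 to -0.41 over both treatments, and each of the other 8 genes has an interval that includes 0.

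The sum of the 3 scaffold transcripts shows what these values amount to per library. It was 56.9 TPM ± 4.33 (SD, n = 8) in WT vehicle, 45.7 TPM ± 4.68 (SD, n = 9) in Brd1+/- vehicle, 51.5 TPM ± 3.41 (SD, n = 10) in WT IMN and 49.1 TPM ± 6.09 (SD, n = 9) in Brd1+/- IMN. Brd1 made up 46.4% ± 4.31, 36.8% ± 4.30, 45.2% ± 4.85 and 34.7% ± 5.83 of it in the same order. The ratio of Brd1 to Brpf1 went from 1.33 ± 0.185 (SD, n = 18) in WT to 0.919 ± 0.176 (SD, n = 18) in Brd1+/- mice, so that Brd1 was the leading scaffold in WT but not, on average, in Brd1+/- mice. These sums are descriptions and were not tested.

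Over both treatments Brd1+/- mice had 7.83 TPM less Brd1 and a scaffold sum at 87.99% of WT (53.9 TPM ± 4.65 and 47.4 TPM ± 5.55, SD, n = 18 each). Brpf1 and Brpf3 together were at 29.2 TPM ± 3.15 in WT and 30.6 TPM ± 5.14 in Brd1+/- mice. For the sum to match WT, Brpf1 alone would have had to stand at 142.0% of its WT level, or Brpf3 alone at 174.1%. The upper ends of their 95% intervals, which come from the log2 scale and not from mean TPM, were 106.6% and 132.5%. These values concern full replacement by 1 paralog only. A joint rise of both was not tested, and smaller rises lie within the intervals. Taken by treatment, the sum was at 80.3% of WT in vehicle mice and at 95.4% in IMN mice, where the Brpf3 interval reached 161.4%. The 174.1% above rests on both treatments and is not the level needed in IMN mice alone. In IMN mice Brd1 was lower by 6.48 TPM, and the WT mean of Brpf3 was 9.95 TPM. The 2 treatments did not look alike: the mean of Brpf1 plus Brpf3 was lower by 1.67 TPM in Brd1+/- vehicle mice than in WT vehicle mice and higher by 4.13 TPM in Brd1+/- IMN mice than in WT IMN mice. The Brpf3 value of Brd1+/- IMN replicate 1 is part of the second difference, and that library had the highest sum of all 19 IMN libraries, 61.9 TPM.

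**Figure D3:**
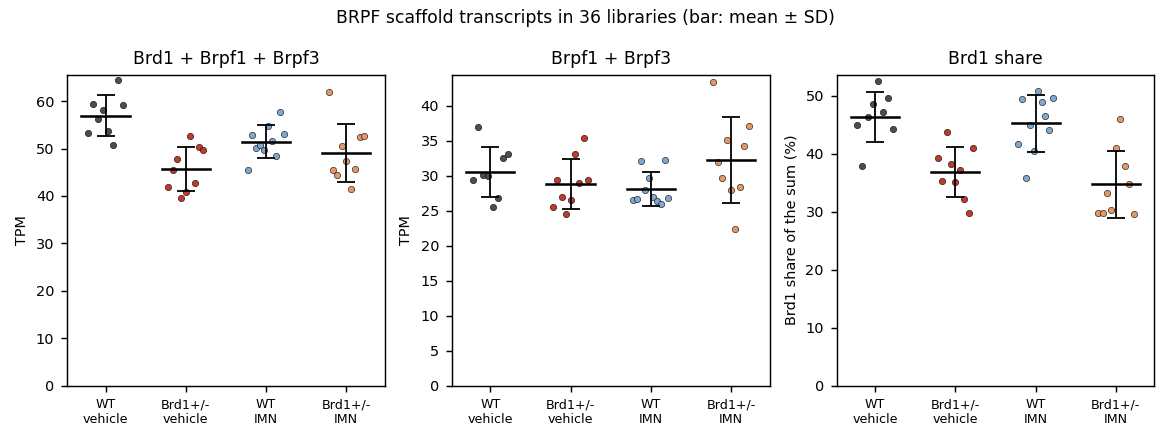
Sum of Brd1, Brpf1 and Brpf3 in TPM, sum of Brpf1 and Brpf3 in TPM, and Brd1 as a percentage of the first sum (y axes, from 0), by group (x axis); points are libraries, bars means and whiskers ± SD. The Brd1 share is 46.4% and 45.2% in the WT groups and 36.8% and 34.7% in the Brd1+/- groups, while the paralog sums overlap in all 4.

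Kat7 (ENSMUSG00000038909), which encodes HBO1, the enzyme BRD1 is best known to hold, was the most abundant of the acetyltransferases. WT vehicle mice had 38.8 TPM ± 4.21 (SD, n = 8), against 39.3 TPM ± 5.66 (SD, n = 9) in Brd1+/- vehicle, 38.5 TPM ± 4.94 (SD, n = 10) in WT IMN and 39.7 TPM ± 3.29 (SD, n = 9) in Brd1+/- IMN. The log2 difference between genotypes over both treatments was 0.03 (SE 0.057; limma adjusted p = 0.999), with an interval of 94.4% to 110.8% of WT.

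Kat6a (ENSMUSG00000031540) and Kat6b (ENSMUSG00000021767) encode MOZ and MORF, close relatives of each other. Kat6a ran from 13.0 to 19.96 TPM in WT vehicle, 9.11 to 18.3 TPM in Brd1+/- vehicle, 10.5 to 18.5 TPM in WT IMN and 12.8 to 16.8 TPM in Brd1+/- IMN, with a log2 genotype difference of 0.01 (SE 0.074) whose sign changed in fits with marker scores as covariates. Kat6b was higher per length, at 17.3 to 35.1, 11.8 to 34.1, 20.8 to 31.4 and 24.2 to 30.8 TPM in the same groups, and its log2 genotype difference was -0.02 (SE 0.092). The lowest value of both genes, and also of Meaf6 (51.8 TPM) within its group, came from Brd1+/- vehicle replicate 7. Brd1 (13.8 TPM) and Kat7 (30.7 TPM) also had their lowest level of that group in it, but Brpf1, Brpf3, Ing4 and Ing5 did not. Without that library the difference was 0.05 for Kat6a and 0.04 for Kat6b, so the sign for Kat6b turned. The intervals over both treatments were 90.6% to 111.6% of WT for Kat6a and 86.7% to 112.2% for Kat6b.

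Ing4 (ENSMUSG00000030330) and Ing5 (ENSMUSG00000026283), the ING readers of these complexes, differed in level by a large factor but not between genotypes beyond their spread. Ing5, the least abundant of the 9 genes, had means of 6.14 and 6.27 TPM in the WT and Brd1+/- vehicle groups and 6.17 and 6.21 TPM in the WT and Brd1+/- IMN groups, and its within-group SD of 0.14 on the log2 scale exceeded that of 3.42% of 2515 genes of similar level. Ing4 had means of 30.2, 27.4, 27.5 and 30.1 TPM in the same order, with the reservation above about the overlapping transcript. The log2 genotype differences over both treatments were 0.02 (SE 0.053) for Ing5 and -0.01 (SE 0.086) for Ing4, and the sign of the latter changed with the scaling and in 13 of 36 fits that left out 1 library. Meaf6 (ENSMUSG00000028863), the small subunit common to all these complexes, was at 80.5 TPM ± 6.28 in WT vehicle and 73.0 TPM ± 10.6 in Brd1+/- vehicle. The vehicle difference of -0.15 (SE 0.085, exact permutation p = 0.0910; limma adjusted p = 1.00) did not pass the test, and over both treatments it was -0.06 (SE 0.068).

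Of the 8 genes other than Brd1, 0 passed in any of the 7 comparisons, either after limma adjustment or at an unadjusted limma p-value under 0.05, a level that 3.75% of all genes reached for genotype in vehicle mice, 3.23% for genotype in IMN mice and 3.62% for genotype over both treatments. For IMN that level was reached by 5.52% of all genes in Brd1+/- mice, 6.6% in WT mice and 9.38% over both genotypes, and for the interaction by 3.2%. Over both treatments the log2 difference was above 0 for 4 of the 8 and below 0 for 4 (47.3% of all genes were above 0). Its median was 0.00 beside -0.01 over all genes tested. The signs split by treatment. In vehicle mice 2 of the 8 were higher (43.7% of all genes were), namely Kat7 and Ing5, whose signs turned with a replicate block or with marker scores as covariates. In IMN mice 8 of the 8 were higher (52% of all genes), with log2 differences from 0.01 for Meaf6 to 0.30 for Brpf3. The interaction was positive for all 8 (56.5% of all genes), though the sign for Ing5 turned with a pseudocount of 1 and after either scaling. The largest relative to their errors were 0.18 for Brpf1 (SE 0.094, limma p = 0.0656) and 0.29 for Ing4 (SE 0.17, limma p = 0.0879), both with a limma adjusted p-value of 1.00. The 8 genes share their libraries and are not independent, so the count of signs carries no test.

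IMN itself moved none of the 9 genes past the threshold. In WT mice the log2 difference with IMN was below 0 for 8 of the 8 partners and for Brd1 (45.5% of all genes were above 0). It ran from -0.001 for Ing5, whose mean TPM was not lower, to -0.17 for Meaf6 (exact permutation p = 0.0894). For Brd1 it was -0.18 (SE 0.091, exact permutation p = 0.0690). For Kat7 and Ing5 that sign turned after median-ratio scaling and quantile normalization. In Brd1+/- mice Brd1 differed by 0.01 (SE 0.095), with a sign that varied with the setting. The log2 differences of the partners ran from -0.01 to 0.17, and 6 of 8 were above 0 (52.5% of all genes). The largest was Brpf3, at 0.17 (SE 0.20), and 2 genes of the table passed an adjusted p-value of 0.05 there (0.00782%). Over both genotypes 70 of 25572 genes passed an adjusted p-value of 0.05 for IMN (0.274%), and 0 of the 9 genes were among them. Of the 8 partners 5 were higher with IMN over both genotypes (49% of all genes).

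Between mice of one group, the 10 pairs formed by Kat7, Kat6a, Kat6b, Ing5 and Meaf6 all had positive correlations, while those of Ing4 and of the scaffolds among themselves were low or negative. After subtracting group means, Pearson's r over the 36 libraries was 0.73 between Kat6a and Kat6b, 0.64 between Kat7 and Ing5 and 0.62 between Ing5 and Meaf6. For Ing4 it was -0.24 with Kat6a, -0.24 with Kat6b, 0.11 with Kat7, 0.03 with Ing5 and -0.01 with Meaf6. Over all 36 pairs of genes r ran from -0.24 to 0.73 with a median of 0.16, and 28 pairs were positive. Brd1 varied with Kat7 (r = 0.54), Kat6a (0.49) and Ing5 (0.44), but hardly with its paralogs, at -0.02 for Brpf1 and -0.16 for Brpf3. TPM were not scaled between libraries, and Kat7, Ing5 and Brd1 also varied with the median-ratio size factor of the library (r = 0.71, 0.69 and 0.57). With its mitochondrial share they varied inversely (r = -0.63, -0.39 and -0.45). For the size factor r was also 0.48 for Kat6a, 0.46 for Meaf6, 0.44 for Kat6b and 0.41 for Brpf1, against 0.13 for Ing4 and 0.02 for Brpf3. For the mitochondrial share it was -0.51 for Brpf1, -0.21 for Ing4, -0.19 for Meaf6, -0.12 for Kat6b, -0.05 for Kat6a and 0.0003 for Brpf3. After quantile normalization the median r over the 36 pairs fell to 0.08, with 0.68 left between Kat6a and Kat6b and -0.36 between Brd1 and Brpf1. These values describe shared variation of 36 libraries and carry no test.

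**Figure D4:**
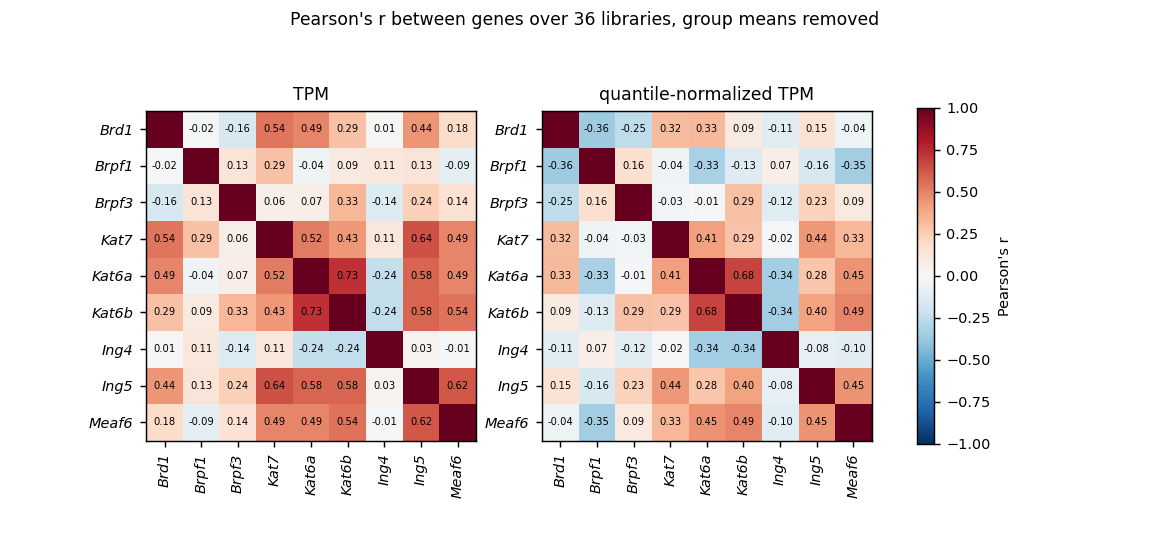
Pearson's r between each pair of the 9 genes over 36 libraries after subtracting group means, from log2(TPM + 0.5) (first panel) and from quantile-normalized values (second panel); colour runs from -1 (blue) to 1 (red) and the numbers are r. The block of Kat7, Kat6a, Kat6b, Ing5 and Meaf6 is red in both panels, with Kat6a and Kat6b at 0.73 and 0.68, whereas Brd1 and Brpf1 go from -0.02 to -0.36.

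Across the 17695 genes that averaged 1 TPM or more, the genes most like Brd1 by the same measure were Gm7192, a processed pseudogene (r = 0.76), Nup133, a nuclear pore subunit (0.72), and Nr4a3, an orphan nuclear receptor (0.71). For Brpf1 they were Ints1, a subunit of the Integrator complex (0.71), Ano8 (0.68) and Atad3a, a mitochondrial ATPase (0.67). For Brpf3, Aqp11, an aquaporin (0.57), and A130010J15Rik (0.56) were among them. The 3 scaffolds had no gene in common among those named, but so few names out of 17695 genes say little about overlap. These r are the highest of many and carry no test.

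Other scaffolds, acetyltransferases, readers and chromatin partners were given the same limma tests, without permutation tests. The list held the JADE scaffolds Jade1, Jade2 and Jade3, the MYST acetyltransferases Kat5 and Kat8, the readers Ing1, Ing2 and Ing3, and Kmt2a, Men1 and Psip1, which encode MLL1, menin and LEDGF, chromatin partners of MOZ. Of these 11 genes, 0 passed at an adjusted p-value of 0.05, and 0 at an unadjusted p-value under 0.05, for genotype in vehicle mice, in IMN mice or over both treatments. The unadjusted level was reached by 3.75%, 3.23% and 3.62% of all genes in the same order. Their median log2 difference over both treatments was -0.01, as it was over all genes. The smallest p-values there belonged to Ing2 (log2 difference 0.07, SE 0.053, limma p = 0.186), a reader that usually serves deacetylase complexes, and Jade2 (-0.07, SE 0.056, limma p = 0.191), a scaffold for HBO1. The limma adjusted p was 0.999 for both. The interaction reached an unadjusted p-value under 0.05 in 1 of the 11 (3.2% of all genes), Kmt2a, named here after its values were seen (log2 difference 0.33, SE 0.16, limma p = 0.0471, limma adjusted p = 1.00). For IMN that level was reached by 2 of the 11 in WT mice, 2 in Brd1+/- mice and 1 over both genotypes, all lower with IMN. The shares of all genes were 6.6%, 5.52% and 9.38%. Ing2 was lower over both genotypes (-0.19, SE 0.053, limma p = 0.000932, limma adjusted p = 0.119). Kmt2a was lower in WT mice (-0.33, SE 0.097, limma p = 0.00315, limma adjusted p = 0.528) and differed by -0.001 in Brd1+/- mice. Men1 was listed at 0 in WT IMN replicate 6 and at 15.4 to 25.1 TPM in the other 35 libraries, so its estimates that include that library have wide errors.

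Around the targeted gene, the 5 nearest protein-coding genes tested on each side of Brd1 gave 0 of 10 with an unadjusted p-value under 0.05 for genotype over both treatments, 0 of 10 in IMN mice and 1 of 10, Gramd4, in vehicle mice. The shares of all genes tested were 3.62%, 3.23% and 3.75% in the same order, so these counts do not set the neighbours apart. Creld2, which encodes an endoplasmic reticulum protein and lies 85.4 kb from Brd1, had a mean of 17.2 TPM ± 3.23 in WT and 15.7 TPM ± 4.30 in Brd1+/- mice (SD, n = 18 each; log2 difference -0.17, SE 0.092, limma p = 0.0772). Gramd4, 2549 kb away across a gene-poor stretch, had 24.8 TPM ± 4.22 and 22.5 TPM ± 2.74 (log2 difference -0.13, SE 0.068, limma p = 0.0570). In vehicle mice its log2 difference was -0.23 (SE 0.075, 95% interval -0.39 to -0.07, limma p = 0.00632, limma adjusted p = 1.00), and in IMN mice it was -0.05 (SE 0.11). Neither gene passed after adjustment over all genes (limma adjusted p = 0.999 for both over both treatments).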

How the data were processed

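The deposited values were TPM per gene and library, made by the authors from single-end BGISEQ-500 reads that passed quality control, with HISAT2 2.1.0 on GRCm38 and StringTie 1.3.4. Strand use and the handling of multi-mapped reads are not given in the sources used here. TPM keep no depth per library, so error was taken from the spread between mice. Libraries were grouped by their labels, and 0 columns were unmatched. From these values, log2(TPM + 0.5) was tested with limma 3.58.1 in R 4.3.3 (empirical Bayes with trend, two-sided) on genes that reached 0.1 TPM in 8 or more libraries, with Benjamini-Hochberg adjustment over 25572 genes. Fold changes on this scale understate changes of low genes. Pairwise comparisons used the libraries of their groups, and the pooled and interaction fits used all 36. The 9 genes also had permutation tests, 54 in all, exact or with 100000 draws within strata. Simulated data with known changes were used to check the limma step. The 9 genes, the lists and the alternatives were chosen with earlier results of these data known. All 9 genes were named, and of the partner list and the neighbours, those with an unadjusted p-value under 0.01 for genotype over both treatments, otherwise the 2 with the smallest. For each scaffold, the 3 genes with the highest r were named, except 1 that is not reported here. Transcript sequences and positions are from GENCODE M21. Protein comparisons were not made. Python 3.11.15 with numpy 2.4.6, scipy 1.17.1, pandas 2.3.3 and matplotlib 3.10.9 was used.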

Additional observations from a re-analysis of the deposited data

Results flagged for a closer look

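Within-group outliers were looked for in 36 sets of libraries (9 genes in 4 groups), by the gap of the highest or lowest library to its nearest neighbour relative to the group's range. Chance marks about 1 in 20 such sets, and 2 were marked. Kat6a was 19.96 TPM in WT vehicle replicate 7, where the other 7 libraries of the group lay between 13.0 and 16.1 TPM. Ing5 was 7.01 TPM in Brd1+/- IMN replicate 3, where the other 8 lay between 5.80 and 6.41 TPM. Neither gene passed a test in any comparison.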

How the results depend on the processing

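In all, 11 alternatives were tried beside leaving out single libraries: pseudocounts of 0.1 and 1, no filter, a mean of 1 TPM or more, median-ratio scaling, quantile normalization, a replicate block, striatal and oligodendrocyte scores as covariates, all 36 libraries in one fit, and fits without Brd1+/- vehicle replicate 6 or WT vehicle replicate 1. Brd1 over both treatments kept its direction and its call in each of these that was run and in all 36 fits that left out 1 library (log2 differences from -0.56 to -0.52). In vehicle mice Brd1 passed, so that the count of called genes among the 9 was 1 in place of 0, with a mean of 1 TPM or more (-0.64, adjusted p = 0.0435), median-ratio scaling (-0.62, 0.00839), quantile normalization (-0.61, 0.00584), covariates (-0.70, 0.0325), all 36 libraries (-0.64, 0.00249) and without Brd1+/- vehicle replicate 6 (1 gene called), but not without WT vehicle replicate 1 (0 called). Over single left-out libraries that difference ran from -0.68 to -0.60. The cause was not tested. Replicate numbers did not pair the libraries: residuals of 48 same-numbered pairs correlated at -0.26 to 0.26, 4 pairs were over 0.1, and 1 of 36 libraries was most like its own number. With the replicate block, Brd1 was at -0.54 over both treatments (adjusted p = 0.00129), -0.67 in vehicle mice (0.766) and -0.43 in IMN mice (1.00), and no call changed.

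The 8 partners gave 0 calls in 832 fits (lowest adjusted p = 0.476). For them, all 36 libraries were left out in turn for genotype over both treatments only. In the other comparisons only Brd1+/- vehicle replicate 6 and WT vehicle replicate 1 were left out, where part of the comparison. Signs turned only for values near 0. For genotype in vehicle mice these were Kat7 (block -0.023, covariates -0.045, single libraries -0.011 to 0.023) and Ing5 (block -0.030, covariates -0.014). For genotype over both treatments they were Brpf1 (median-ratio 0.0026, quantile 0.0024, single libraries -0.024 to 0.0095), Ing4 (median-ratio 0.0018, quantile 0.0044, single libraries -0.033 to 0.036), Kat6a (covariates -0.017, single libraries -0.018 to 0.047), Kat6b (single libraries -0.055 to 0.041) and Ing5 (single libraries -0.0046 to 0.032). For IMN in Brd1+/- mice they were Brd1 (median-ratio -0.00076, quantile -0.0049), Kat6a (quantile -0.0067), Ing5 (pseudocount 0.1 0.00067, covariates 0.045, without Brd1+/- vehicle replicate 6 0.0087) and Meaf6 (quantile 0.011, covariates 0.050). For IMN in WT mice they were Kat7 (median-ratio 0.0034, quantile 0.015) and Ing5 (median-ratio 0.016, quantile 0.0061, without WT vehicle replicate 1 0.0088). For IMN over both genotypes they were Kat7 (block -0.014) and Ing5 (median-ratio 0.0047, covariates 0.020, single libraries 0.0036 to 0.0042), and for the interaction Ing5 (pseudocount 1 -8.9e-05, median-ratio -0.022, quantile -0.027, single libraries -0.0088 to 0.0099). The scaffold sum was 88.5% of WT after median-ratio scaling. The median correlation was 0.20 by rank and 0.081 after quantile normalization. TPM give no depth, so no counting error could be set beside these values.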
